A study of Mus musculus with 36 samples.

Results

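The genes followed here are 10 matrix metalloproteinases of mouse skin: the gelatinases Mmp2 and Mmp9, the collagenases Mmp8 and Mmp13, the stromelysins Mmp3 and Mmp10, the macrophage elastase Mmp12, the membrane-bound Mmp14 and Mmp25, and Mmp19. They were chosen by symbol, as metalloproteinases of wounds, with earlier results of these data known. They are 10 of the 55414 genes counted in every library, and all 10 passed the filter on low counts that left 20657 genes for testing.

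Matrix metalloproteinases are secreted or membrane-anchored enzymes that hold a zinc ion in their active site and cut proteins of the extracellular matrix. They are made as inactive precursors, are activated when their propeptide is removed, often by plasmin or by another member, and are blocked by tissue inhibitors (Timps). In healing skin they are known for freeing keratinocytes from collagen, for the passage of leukocytes and for the remodelling of the scar.

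Poly(A)-selected RNA of 36 skin biopsies was sequenced. The groups were PD wounds at day 2 (n = 5), day 4 (n = 6) and day 12 (n = 6), P wounds at day 2 (n = 5), day 4 (n = 5) and day 12 (n = 6), and unwounded skin labelled day 0 (n = 3). The labels name the arms by these letters alone, and strain, age, genotype and agents are not given in the sources used here. The series title concerns the removal of cells with high p21 and the speed of skin repair, so the comparisons address what wounding does over time and whether PD wounds differ from P wounds. Nothing in the labels says whether libraries of a group came from separate animals, so p-values measure the spread between these biopsies.

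Library totals in genes were 11.8 to 58.4 M counts (M, 1000000). Summed markers of basal keratinocytes reached at least 2970 CPM (counts per 1000000) in every library. Skeletal muscle markers were also high, at 1500 to 55000 CPM in wounds and 47200 to 76400 CPM in unwounded skin. Within the wound groups, replicates 1 and 2 often stood apart from replicates 3 and up. Both lay above all others of their group for Mmp2 and for Mmp14 in 4 of 6 groups, and for Mmp3, Mmp19 and the summed fibroblast markers in 3 of 6. Where a call changed between these libraries and the others, values of 1 or both sets are given for some tests, not all. In bulk tissue, fewer cells of a type and less RNA per cell cannot be told apart.

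Of the 10 genes, 5 lie in a run of Mmp genes on chromosome 9 in GRCm39. Mmp13 (chr9:7272514-7283331), Mmp12 (chr9:7344381-7369499), Mmp3 (chr9:7445822-7455975), Mmp10 (chr9:7502353-7510241) and Mmp8 (chr9:7558457-7568487) are all on the plus strand and have 10 exons each in their canonical transcript. They span 296.0 kb, with 2 further Mmp genes between them, of a run of 10 Mmp genes that covers 427.1 kb. The others lie apart: Mmp2 (chr8:93553902-93580049), Mmp9 (chr2:164780439-164797771), Mmp14 (chr14:54668878-54682821), Mmp19 (chr10:128626773-128636695) and, on the minus strand, Mmp25 (chr17:23847285-23864251). Exons of Mmp2 overlap those of Gm45472 on the opposite strand by 860 bp, and exons of Mmp19 overlap those of Tmem198b by 1084 bp. Mmp8, Mmp12, Mmp14 and Mmp25 have shorter overlaps of 157 to 263 bp with opposite-strand genes, 157 bp of it between Mmp12 and Mmp1b. The strand setting of the counting is not given in the sources used here, so reads of these stretches are uncertain.

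Start-site windows are shown because several stromelysins and collagenases are textbook targets of AP-1, the Fos and Jun transcription factors, whose genes are described further on. RefSeq start-site windows of 300 bases, taken from a table built on GRCm38.p6, were matched exactly to GRCm39. They were found for 7 of the 10 genes, in 8 windows, since Mmp12 has 2; Mmp2, Mmp9 and Mmp19 have no entry. The letters TGAGTCA, the AP-1 site, were sought on both strands. They occurred in 4 of these 8 windows, from 4 of the 7 genes, and in 5.2% of all 32851 windows of that length. The lines give the 90 bases before the RefSeq start, 5′ to 3′ on the gene's strand, with the AP-1 letters in capitals (TGACTCA where they read on the other strand).
Mmp3, chr9:7445732-7445821: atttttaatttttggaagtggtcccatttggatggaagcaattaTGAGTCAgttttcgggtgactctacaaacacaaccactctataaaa
Mmp10, chr9:7502253-7502342: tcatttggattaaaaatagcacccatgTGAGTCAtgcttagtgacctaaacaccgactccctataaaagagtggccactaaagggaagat
Mmp13, chr9:7272424-7272513: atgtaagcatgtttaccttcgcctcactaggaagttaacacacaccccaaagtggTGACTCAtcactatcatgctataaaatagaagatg
Mmp12, second window, chr9:7347284-7347373: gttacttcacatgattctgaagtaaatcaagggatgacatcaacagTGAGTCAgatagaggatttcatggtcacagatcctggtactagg
Mmp8, chr9:7558340-7558429: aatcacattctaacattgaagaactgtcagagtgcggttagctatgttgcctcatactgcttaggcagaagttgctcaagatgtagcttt
Mmp14, chr14:54668965-54669054: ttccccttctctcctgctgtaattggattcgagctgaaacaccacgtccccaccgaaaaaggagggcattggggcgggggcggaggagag
The letters lay 46 to 40 bases before the start in Mmp3, 63 to 57 in Mmp10, 35 to 29 in Mmp13 and 44 to 38 in the second Mmp12 window. The windows of Mmp8, Mmp14 and Mmp25 and the first of Mmp12 did not hold them. The second Mmp12 window, which did, lies inside the gene, downstream of the first. A match of letters is not a bound site.

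Wounding raised nearly all of these genes. Against unwounded skin, edgeR called 9 of the 10 higher in PD wounds at day 2 and 9 in P wounds at day 2 (adjusted p under 0.05 over all tested genes). The same count of 9 was reached in PD and in P wounds at day 4. At day 12 it was 7 of 10 in PD wounds and 9 of 10 in P wounds, and none was called lower in any of the 6 comparisons. Of all tested genes, 21% were called higher in PD wounds at day 2 and 22.3% in P wounds at day 2, against 9 of 10 members. At day 4 the background was 25.4% in PD and 23.6% in P wounds, and at day 12 it was 24.2% in PD and 23.7% in P wounds. Genes called lower made up 18.4% (PD) and 19% (P) at day 2, 21.8% (PD) and 19.7% (P) at day 4, and 20.7% (PD) and 20% (P) at day 12, against 0 members. The exceptions were Mmp2 at days 2 and 4 in both arms, Mmp9 at day 12 in both arms, and Mmp8 and Mmp25 at day 12 in PD wounds. The median member change was 4.30 (PD) and 4.38 (P) on the log2 scale at day 2, 4.03 (PD) and 3.62 (P) at day 4, and 2.67 (PD) and 2.87 (P) at day 12. Over all tested genes the median was between 0.02 and 0.10. These medians were the same with Mmp10, which had no counts in unwounded skin, set at its lower bound. All 6 comparisons use the same 3 unwounded libraries. Over these comparisons, wound and unwounded libraries did not overlap for 19.1% to 23.6% of all tested genes, higher in wounds. For a further 19.3% to 22.6% they did not overlap and were lower. Calls that changed are given with the setting: another test (DESeq2, limma-voom with sample weights), library totals in place of TMM scaling, no filter on low counts, only the compared libraries in the fit, the replicate number as a block, or 2 surrogate variables, which are covariates estimated from the counts.

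**Figure D1:**
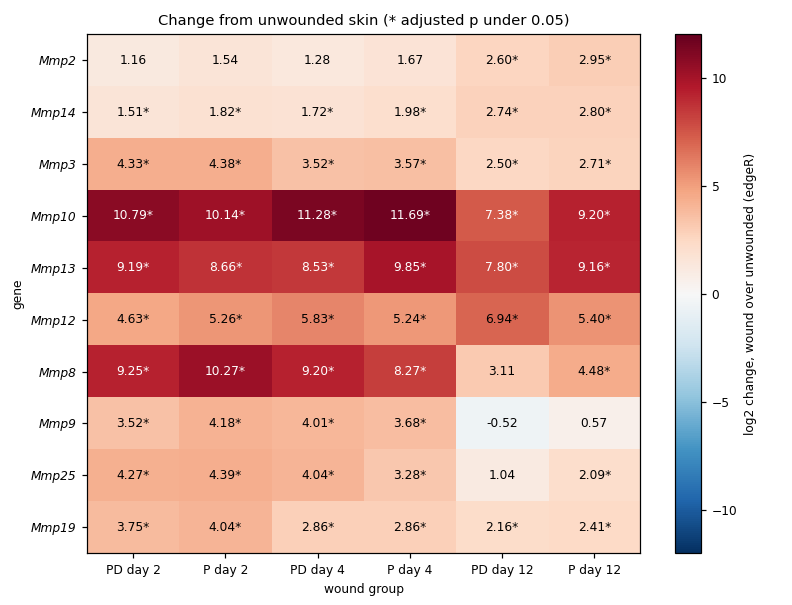
Log2 change of each gene (rows) in PD and P wounds at days 2, 4 and 12 over unwounded skin (columns), estimated by edgeR, with asterisks at an adjusted p under 0.05. All values are above 0 except Mmp9 in PD wounds at day 12 (-0.52), and the Mmp10 values rest on 0 counts in unwounded skin and so depend on the prior count.

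Summed over the 10 genes per kilobase of exon, levels averaged 43.2 CPM per kb in unwounded skin (range 36.7 to 49.6). At day 2 they averaged 280 in PD wounds (195 to 397) and 353 in P wounds (230 to 470). Day 4 means were 264 in PD wounds (199 to 376) and 280 in P wounds (192 to 430). Day 12 means were 255 in PD wounds (162 to 404) and 301 in P wounds (105 to 795, SD 273). The ranges of PD and P wounds overlapped on each day. The order of the genes changed over time. On this per-kilobase scale unwounded skin was led by Mmp2 (17.5 ± 5.24) and Mmp14 (14.4 ± 1.05; SD, n = 3), which did not differ beyond their spread. At day 2, Mmp3 led in PD wounds (72.8 ± 41.6, SD, n = 5) and Mmp9 led in P wounds (88.4 ± 27.8, SD, n = 5). Mmp9 led at day 4, with 78.9 ± 36 in PD wounds (SD, n = 6) and 62.7 ± 63.4 in P wounds (SD, n = 5). Among Mmp9, Mmp3, Mmp14 and Mmp2, neighbours in the order of each day 2 and day 4 group differed by less than the larger of their SDs, except Mmp9 (55.8 ± 12.9) and Mmp14 (40.8 ± 9.03) in PD wounds at day 2 (SD, n = 5). By day 12, Mmp2 (106 ± 59 PD, 135 ± 135 P) and Mmp14 (95.8 ± 29.1 PD, 100 ± 64.3 P; SD, n = 6 each) stood first again. In replicates 3 and up alone their order was turned, with Mmp14 at 80.0 ± 20.2 (PD) and 62.5 ± 16.2 (P) and Mmp2 at 68.2 ± 4.05 (PD) and 54.7 ± 14.9 (P; SD, n = 4 each). Mmp8 was last at day 12, at 0.169 ± 0.138 in PD wounds and 0.445 ± 0.656 in P wounds.

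**Figure D2:**
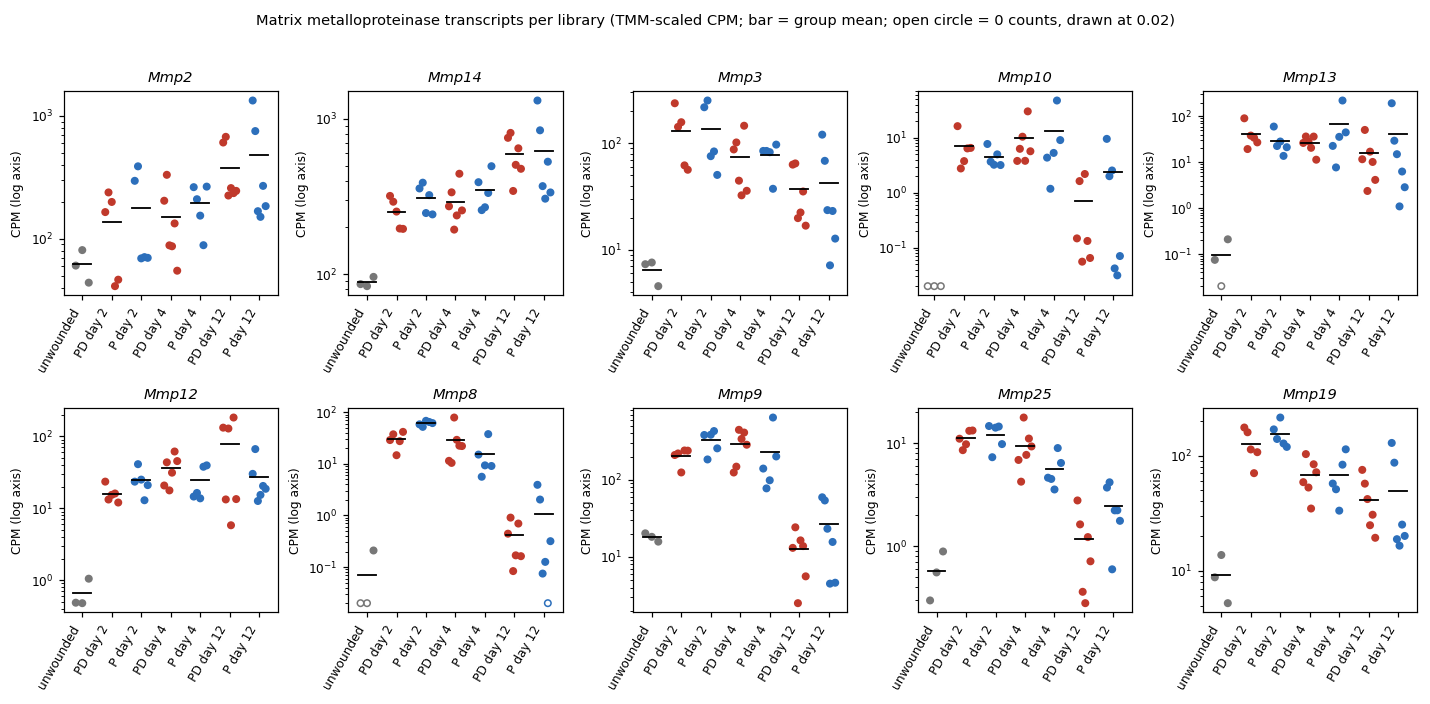
CPM of each gene in every library (log axis), by group, with PD in red, P in blue, unwounded skin in grey and bars at group means; open circles are libraries with 0 counts, drawn at 0.02. Mmp8, Mmp9 and Mmp25 stand low again at day 12, Mmp2 and Mmp14 stand highest at day 12, and Mmp12 in PD wounds at day 12 splits into 3 libraries near 128 to 182 CPM and 3 near 5.8 to 13.4.

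The collagenase of neutrophil granules, Mmp8, was near absent in unwounded skin, high at days 2 and 4 and low again at day 12. Unwounded libraries held 0, 0 and 0.21 CPM. At day 2 its level was 28.9, 37.3, 14.7, 27.5 and 41.6 CPM in PD wounds and 58.2, 52.0, 68.1, 64.7 and 61.6 CPM in P wounds. Every PD library lay below every P library on that day. At day 4 the values were 11.4, 10.4, 78.9, 29.2, 22.5 and 22.1 CPM in PD wounds and 15.1, 5.62, 9.35, 37.7 and 9.09 CPM in P wounds, which overlapped. By day 12 they were 0.0837 to 0.908 CPM (median 0.306) in PD wounds and 0 to 3.92 CPM (median 0.222) in P wounds. Replicates 1 and 2 of the P arm (3.92 and 2.03) stood above its others, which were at or under 0.318 CPM. With 4 counts in all of unwounded skin, day 2 levels were 720-fold (PD; 281 to 2640) and 1460-fold (P; 571 to 5360) higher, with intervals for counting error only.

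At day 12, Mmp8 was lower than at day 4 in both arms, by a log2 change of -6.09 in PD wounds (SE 0.85, edgeR adjusted p = 2.07e-06) and -3.79 in P wounds (SE 0.77, adjusted p = 0.000514). In P wounds the difference was -1.79 (adjusted p = 0.0732) with replicates 1 and 2 alone. Against unwounded skin, Mmp8 was called higher in P wounds at day 12 (4.48, SE 1.46, edgeR adjusted p = 0.0139), but not without P replicate 1 (3.42, adjusted p = 0.0505) or without unwounded replicate 1 (4.05, adjusted p = 0.0564) or 2 (3.61, adjusted p = 0.0869). In P wounds of day 12 from replicate 3 up it was 1.46 (adjusted p = 0.452), and the call was also lost with limma-voom (2.24, adjusted p = 0.178) and with only the compared libraries (4.39, adjusted p = 0.109). In PD wounds the day 12 change of 3.11 (SE 1.55, adjusted p = 0.0999) became a call without unwounded replicate 3 (6.75, adjusted p = 0.0483), the one with counts. It was also called with 2 surrogate variables (adjusted p = 0.0471), DESeq2 (adjusted p = 0.0244) and replicates 1 and 2 alone (3.91, adjusted p = 0.0113).

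Gelatinase B, Mmp9, which degrades denatured collagen and basement membrane collagen, followed the same course from a higher start. Unwounded skin held 20.2, 18.2 and 15.8 CPM. At day 2 levels were 210, 220, 125, 240 and 239 CPM in PD wounds and 382, 184, 385, 429 and 256 CPM in P wounds. The day 4 values were 124, 148, 445, 339, 411 and 285 CPM in PD wounds and 140, 77.5, 98.7, 643 and 201 CPM in P wounds. All wounds of days 2 and 4 thus lay above all unwounded skin, by 3.52 (PD) and 4.18 (P) on the log2 scale at day 2 and by 4.01 (PD) and 3.68 (P) at day 4. Day 12 brought it back: 13.1, 24.2, 2.51, 16.4, 13.8 and 5.59 CPM in PD wounds and 59.3, 54.0, 23.2, 4.50, 15.6 and 4.62 CPM in P wounds. Both groups overlapped unwounded skin. The change from day 4 to day 12 was -4.54 in PD wounds (SE 0.63, edgeR adjusted p = 1.9e-06) and -3.11 in P wounds (SE 0.60, adjusted p = 0.000322). With replicates 1 and 2 alone the P change was -0.93 (adjusted p = 0.117). Against unwounded skin Mmp9 in P wounds at day 12 was 0.57 higher and not called, but limma-voom with sample weights called it lower, at -1.13 (adjusted p = 0.0318), and replicates 1 and 2 alone put it higher, at 1.66 (adjusted p = 0.00231).

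Mmp25 encodes leukolysin, an enzyme anchored to the membrane of neutrophils. It averaged 0.583 ± 0.297 CPM in unwounded skin (SD, n = 3), and at day 2 reached 11.1 ± 2.07 in PD wounds and 12.0 ± 3.33 in P wounds (SD, n = 5 each). Day 12 levels fell to 0.281 to 2.78 CPM in PD wounds, against 4.23 to 17.7 at day 4, with no overlap (log2 -2.99, SE 0.44, edgeR adjusted p = 4.33e-06). In P wounds they were 0.599 to 4.17 CPM at day 12 and 3.55 to 8.94 at day 4, and these overlapped (-1.19, SE 0.43, adjusted p = 0.0431). The P call was lost when any of 8 single libraries was left out, each of P day 12 replicates 3 to 6 and of P day 4 replicates 1, 2, 4 and 5, with values from -1.40 to -0.95 over all libraries left out. With replicates 1 and 2 alone the change was -1.29 (adjusted p = 0.081) in PD wounds and -0.20 (adjusted p = 0.793) in P wounds. The P call was also lost with library totals alone, no filter, the replicate block, only the compared libraries or 2 surrogate variables (adjusted p 0.0672, 0.0805, 0.0703, 0.0723 and 0.158). Over unwounded skin the PD change at day 12 was 1.04 (adjusted p = 0.135) and became called with 2 surrogate variables (1.84, adjusted p = 0.022) and with replicates 1 and 2 alone (2.01, adjusted p = 0.00352).

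These 3 genes rose and fell with the sum of the neutrophil markers, though not all markers on the list were called lower at day 12 than at day 4. The sum of 10 neutrophil markers was 0.577 to 2.49 CPM in unwounded skin, where 4 of the 10 had no counts. It was 2300 to 4670 (PD) and 4880 to 9460 (P) at day 2, 2600 to 13900 (PD) and 2440 to 9270 (P) at day 4, and 12.7 to 376 (PD) and 16.2 to 452 (P) at day 12. All 10 markers were called higher at days 2 and 4 in both arms, and 8 (PD) and 10 (P) at day 12. Over these comparisons 21% to 25.4% of all tested genes were called higher. From day 4 to day 12, 8 of the 10 markers were called lower in PD wounds, beside 15.6% of all genes. In P wounds 8 were called lower and 1 higher, beside 12.6% and 11.2% of all genes. Across the 36 libraries Mmp8 and Mmp25 had a Pearson r of 0.93 in log2 CPM, and Mmp8 and Mmp9 of 0.92, over points that share groups and days. The genes most like Mmp8 in pattern were Fpr1, Cd177 and Lcp1 (r 0.969 to 0.971), those most like Mmp9 were Tarm1, Ifitm1 and Socs3 (0.966 to 0.972), and those most like Mmp25 were Coro1a, Pilrb1 and Fgr (0.945 to 0.947), among 15413 genes. Fpr1 and Cd177 encode surface proteins of neutrophils. The part of neutrophil number in these results was not tested.

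**Figure D3:**
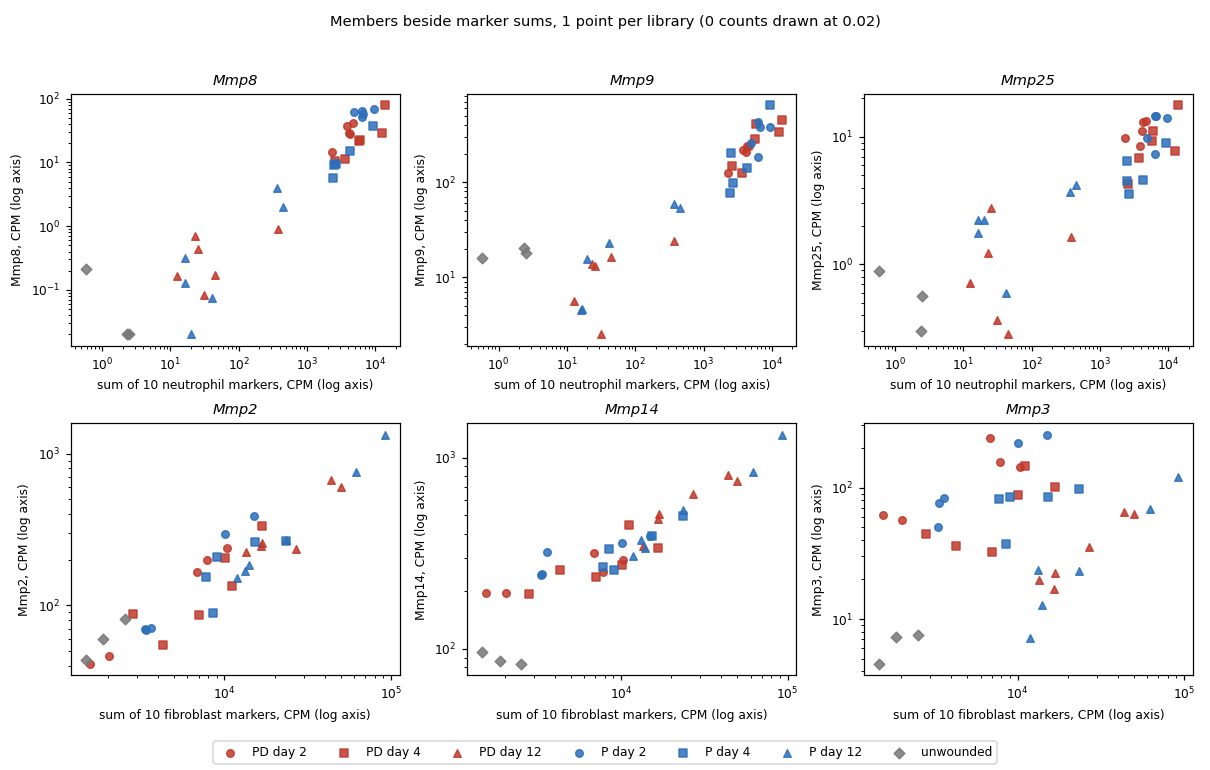
CPM of Mmp8, Mmp9 and Mmp25 against the sum of 10 neutrophil markers (top), and of Mmp2, Mmp14 and Mmp3 against the sum of 10 fibroblast markers (bottom), 1 point per library on log axes, with 0 counts drawn at 0.02. Colour gives the arm and shape the day; day 2 and day 4 wounds sit at neutrophil sums of 2300 or more, and the points of highest Mmp2 are day 12 wounds with fibroblast sums of 43900 to 92000.

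Collagenase Mmp13, the main interstitial collagenase of rodents, varied widely between libraries. In unwounded skin its level was 0.0748, 0 and 0.21 CPM, from 6 counts in all. It reached 90.7, 19.4, 38.2, 34.3 and 27.1 CPM in PD wounds and 59.99, 22.6, 28.3, 13.8 and 21.3 CPM in P wounds at day 2. At day 4 the values were 26.4, 36.4, 28.5, 20.7, 36.3 and 11.4 CPM in PD wounds and 22.7, 7.72, 35.8, 222 and 44.8 CPM in P wounds. They were 11.7, 50.7, 2.37, 17.1, 10.2 and 4.13 CPM in PD wounds and 193, 29.5, 15, 1.09, 6.29 and 2.86 CPM in P wounds at day 12. Each wound library lay above each unwounded one. Ratios of group means to pooled unwounded counts were 671 (PD; 308 to 1830) and 467 (P; 215 to 1270) at day 2, and 256 (PD; 118 to 697) and 661 (P; 304 to 1800) at day 12. The last ratio leans on P replicate 1, at 193 CPM. Without that library, Mmp13 was called lower in P wounds at day 12 than at day 4 (log2 -2.6, edgeR adjusted p = 0.018). With it, the change was -0.68 (SE 0.87, adjusted p = 0.617). Leaving out P day 4 replicate 4 instead, at 222 CPM, turned the change to 0.60, which was not called.

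Stromelysin 2, Mmp10, is known from keratinocytes at the wound edge. It had 0 counts in all 3 unwounded libraries. Levels were 2.77 to 16.3 CPM (median 6.41) in PD wounds and 3.19 to 7.72 CPM (median 3.68) in P wounds at day 2. At day 4 they were 3.80 to 30.3 CPM (median 6) in PD wounds and 1.18 to 47.7 CPM (median 5.31) in P wounds. Set against 3 counts over the unwounded group, these means were at least 229-fold (PD) and 146-fold (P) higher at day 2 and at least 322-fold (PD) and 433-fold (P) higher at day 4. Day 12 was uneven, with 0.148, 1.63, 0.0558, 2.19, 0.133 and 0.0651 CPM in PD wounds and 9.56, 2.00, 2.54, 0.042, 0.0314 and 0.0706 CPM in P wounds. In each arm a few libraries above 1 CPM stood apart from the rest under 0.15 CPM. The drop from day 4 to day 12 was called in PD wounds (log2 -3.90, SE 1.09, edgeR adjusted p = 0.00636) and lost with 2 surrogate variables (adjusted p = 0.0702) and with replicates 1 and 2 alone (-2.46, adjusted p = 0.272). In P wounds it was -2.49 (adjusted p = 0.0757), or -3.83 (adjusted p = 0.00943) without replicate 1 of day 12. Without P replicate 4 of day 4 it was -1.04 and not called. The day 12 call against unwounded skin was lost in PD wounds without PD replicate 2 or 4 or any 1 unwounded library (adjusted p 0.0694 to 0.124), with no filter (adjusted p = 0.0744), with limma-voom (adjusted p = 0.0667) and in replicates 3 and up (adjusted p = 0.0668). It was lost in P wounds with only the compared libraries in the fit (adjusted p = 0.0608) and with limma-voom, where the change was 2.87 (adjusted p = 0.15).

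The other stromelysin, Mmp3, cuts proteoglycans, laminin and fibronectin and can activate other precursors. Its level was 7.33, 7.60 and 4.56 CPM in unwounded skin and was highest at day 2, with 237, 142, 158, 62.0 and 56.4 CPM in PD wounds and 218, 252, 75.6, 83.8 and 50.4 CPM in P wounds. In the P arm, replicates 1 and 2 were above all others. At day 4 it ranged from 32.5 to 146 CPM in PD wounds and 37.4 to 97.1 CPM in P wounds, and at day 12 from 16.8 to 64.7 CPM in PD wounds and 7.15 to 120 CPM in P wounds. Changes over unwounded skin were called throughout: 4.33 (PD) and 4.38 (P) at day 2, 3.52 (PD) and 3.57 (P) at day 4, and 2.50 (PD) and 2.71 (P) at day 12. With limma-voom the P change at day 12 was 1.16 (adjusted p = 0.0565). Wound keratinocyte markers summed to 1650 to 26700 CPM over the wounds of days 2 and 4 and 625 to 876 CPM in unwounded skin. At those days 21% to 25.4% of all tested genes were called higher, as were 6 or 7 of the 7 markers. Their part in the Mmp3, Mmp10 and Mmp13 results was not tested.

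Macrophage elastase, Mmp12, split the PD wounds of day 12. Unwounded skin held 0.486, 0.479 and 1.05 CPM. Day 2 levels were 12.0 to 23.4 CPM (median 15.3) in PD wounds and 12.9 to 41.0 CPM (median 23.4) in P wounds. At day 4 they were 17.7 to 61.5 CPM (median 37.3) in PD wounds and 13.7 to 39.4 CPM (median 16.3) in P wounds. At day 12 they were 132, 13.3, 128, 5.80, 182 and 13.4 CPM in PD wounds and 30.05, 66.4, 12.6, 15.3, 20.4 and 18.6 CPM in P wounds. PD replicates 1, 3 and 5 lay above every other library of the series, and PD replicates 2, 4 and 6 lay in the low range of the P wounds or below it. Against unwounded skin the changes were 4.63 (PD) and 5.26 (P) at day 2, 5.83 (PD) and 5.24 (P) at day 4, and 6.94 (PD) and 5.4 (P) at day 12, all called. Summed monocyte and macrophage markers were 152 to 443 CPM in unwounded skin and 1200 to 4850 CPM in all wounds of days 2 and 4. At day 12 they were 1695, 1295, 594, 476, 890 and 481 CPM in PD replicates 1 to 6 and 224 to 2360 CPM in P wounds. Of the 2 PD libraries with the highest sums, replicate 1 was high in Mmp12 and replicate 2 was not; the part of macrophage number was not tested. No gene tracked Mmp12 as closely as others were tracked: its best matches, Rab13, Fkbp11 and Slc9a5, had r of 0.831 to 0.833.

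The remaining 3 genes are Mmp2, Mmp14 and Mmp19. Gelatinase A, Mmp2, is activated at the cell surface by the membrane-type enzyme Mmp14, itself a collagenase. Mmp2 stood at 60.5, 80.9 and 43.9 CPM in unwounded skin. It was 165, 238, 199, 41.2 and 46.4 CPM in PD wounds and 296, 389, 69.3, 70.9 and 70.0 CPM in P wounds at day 2, so both groups held libraries within the unwounded range or next to it. Day 4 ranges were 55.0 to 332 CPM (PD) and 88.7 to 266 CPM (P). At day 12 it was 607, 676, 225, 259, 235 and 245 CPM in PD wounds and 1335, 753, 168, 151, 270 and 184 CPM in P wounds, all above unwounded skin. By edgeR with all libraries, only the day 12 changes were called (2.6, SE 0.80, edgeR adjusted p = 0.00902 in PD; 2.95, SE 0.81, adjusted p = 0.00416 in P). The day 2 changes were 1.16 (PD) and 1.54 (P) and became called with replicates 1 and 2 alone (1.71, adjusted p = 0.00118, PD; 2.49, adjusted p = 9.6e-05, P). In replicates 3 and up they were 0.69 (adjusted p = 0.263, PD) and 0.21 (adjusted p = 0.749, P). The day 4 changes were 1.28 (adjusted p = 0.155) in PD wounds and 1.67 (adjusted p = 0.0778) in P wounds, where every library lay above unwounded skin. The P change at day 4 was called with the replicate block, 2 surrogate variables, DESeq2, limma-voom, only the compared libraries and either set of replicates (1.51 to 2.47, adjusted p 4.34e-06 to 0.0323). The PD change at day 4 was called with the block (1.72, adjusted p = 0.00298), 2 surrogate variables (2.79, adjusted p = 8.46e-07) and replicates 1 and 2 alone (2.13, adjusted p = 0.000314). At day 2 the block and surrogate variables called both arms (1.49 to 1.72, adjusted p 0.000164 to 0.00916), and limma-voom called the PD arm (1.29, adjusted p = 0.00747).

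Mmp14 was above unwounded skin in every wound. It held 86.1, 83.6 and 95.9 CPM in unwounded skin, and 196 to 319 CPM in PD and 243 to 388 CPM in P wounds at day 2. Levels were 194 to 444 CPM (PD) and 258 to 496 CPM (P) at day 4, and 343 to 813 CPM (PD) and 306 to 1316 CPM (P) at day 12. The called changes were 1.51 (PD) and 1.82 (P) at day 2, 1.72 (PD) and 1.98 (P) at day 4, and 2.74 (PD) and 2.80 (P) at day 12. It was called higher at day 12 than at day 4, by 1.02 in PD wounds (SE 0.28, edgeR adjusted p = 0.00506) and by 0.82 in P wounds (SE 0.29, adjusted p = 0.0409). The P change was 0.05 (adjusted p = 0.921) from replicate 3 up, and the call was lost without any of 6 single libraries: without day 12 replicate 1 it was 0.45 (adjusted p = 0.205) and without day 12 replicate 2 it was 0.71 (adjusted p = 0.0847). Without day 4 replicate 1, 2, 3 or 4 it was 0.73 to 0.86 (adjusted p 0.0577 to 0.107). It was also lost with no filter on low counts, with limma-voom and with only the compared libraries (adjusted p 0.0654, 0.696 and 0.174).

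Summed fibroblast markers were 1470 to 2520 CPM in unwounded skin and 13500 to 50000 (PD) and 11800 to 92000 (P) at day 12. At day 2 the P wounds held 10100 to 15000 CPM of them in replicates 1 and 2, where Mmp2 was 296 to 389 CPM, and 3320 to 3620 CPM in the others, where Mmp2 was 69.3 to 70.9 CPM. The genes most like Mmp2 were Col3a1, which is on the marker list, Lum, also on it, and Adamts2 (r 0.968 to 0.976). Cd276, Adam12 and C1qtnf6 were most like Mmp14 (0.951 to 0.957). Fibroblast content was not tested as a cause of these results.

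Mmp19, which cuts basement membrane proteins, was highest at day 2. It held 5.24 to 13.7 CPM in unwounded skin, 70.4 to 175 CPM in PD and 119 to 214 CPM in P wounds at day 2, 34.7 to 103 CPM in PD and 33.3 to 113 CPM in P wounds at day 4, and 19.4 to 75.1 CPM in PD and 16.5 to 129 CPM in P wounds at day 12. No wound library overlapped unwounded skin, and its 6 changes of 2.16 to 4.04 were all called. Mmp3 had an r of 0.89 with it across the 36 libraries. Cyp7b1, Ccl7 and Mcfd2 were most like Mmp3 (0.927 to 0.941), Gm18445, Cxcr2 and Trem1 most like Mmp10 (0.910 to 0.942; Cxcr2 is a neutrophil marker of the list), and Timp1, Ripk3 and Cstdc5 most like Mmp13 (0.884 to 0.898).

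Between days 2 and 4 no member was called in either arm, against 4.26% of all genes in PD and 8.45% in P wounds. By unadjusted p under 0.05 there were 0 of 10 in PD and 3 of 10 in P wounds, against 19.6% (PD) and 22.5% (P) of all genes, and DESeq2 called 0 in both. Limma-voom called 2 lower in PD wounds, and 4 lower and 1 higher in P wounds, where it called 19.9% (PD) and 30% (P) of all genes. With 2 surrogate variables, Mmp2 was called higher in PD wounds (1.18, adjusted p = 0.0102). The 3 with the smallest p in P wounds had lower values at day 4, Mmp8 by a log2 change of -1.99 (edgeR adjusted p = 0.093), Mmp19 by -1.18 (adjusted p = 0.123) and Mmp25 by -1.11 (adjusted p = 0.126). Without P day 4 replicate 4, Mmp8 was called (-2.61, adjusted p = 0.0308). Between days 4 and 12, edgeR called 1 member higher and 4 lower in PD wounds, where 15.7% of all genes were called higher and 15.6% lower. In P wounds it called 1 higher and 3 lower, with backgrounds of 11.2% and 12.6%. The P split turned with the libraries: replicates 1 and 2 alone gave 2 higher (Mmp2 and Mmp14) and 0 lower, where 7.12% of genes were called higher and 6.7% lower, and replicates 3 and up gave 0 higher and 7 lower, where 9.9% were higher and 16.2% lower. Limma-voom also called 0 higher and 7 lower, against 25.6% and 26.2% of all genes. With all libraries the lower members were Mmp8, Mmp9 and Mmp25 in both arms and Mmp10 in PD wounds. Single libraries added calls: without P day 12 replicate 1, Mmp3 (-1.52, adjusted p = 0.0398) joined Mmp10 and Mmp13 in the P arm. In the PD arm, Mmp2 (1.32, adjusted p = 0.08) was called without day 4 replicate 2 (1.72, adjusted p = 0.0289), and also with library totals alone, the replicate block, 2 surrogate variables, DESeq2, limma-voom, only the compared libraries and either set of replicates (1.15 to 1.48, adjusted p 0.00186 to 0.0474). In the P arm Mmp2 was called with the block, surrogate variables and replicates 1 and 2 alone (adjusted p 0.042, 0.036 and 0.00499). Mmp12 was called in the PD arm without day 12 replicate 4 (1.36, adjusted p = 0.0498) and with 2 surrogate variables (1.69, adjusted p = 0.0387). Mmp3 was called lower in both arms with the block and with surrogate variables (-1.21 to -1.09, adjusted p 0.0187 to 0.0423). The P count fell to 2 of 10 without day 4 replicate 1, 2 or 4.

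PD and P wounds were not told apart by these genes. At each of days 2, 4 and 12, edgeR called 0 of the 10 members, and 0% of all tested genes. By unadjusted p under 0.05 there were 0, 0 and 2 members at days 2, 4 and 12, against 3.84%, 11.5% and 4.95% of all genes. DESeq2 called no member on any day. Limma-voom with sample weights called Mmp8 higher in PD wounds at day 4 (1.12, adjusted p = 0.0422), and no other, on a day when it called 10% of all genes. Member differences ran from -1.02 to 0.65 at day 2, from -1.32 to 0.93 at day 4 and from -1.82 to 1.54 at day 12 on the log2 scale, with medians of -0.30, -0.03 and -0.70.

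Their intervals show what these group sizes can tell. Narrowest was Mmp14, whose difference was -0.31 (95% interval -0.93 to 0.31) at day 2, -0.27 (-0.86 to 0.32) at day 4 and -0.06 (-0.63 to 0.50) at day 12. Widest was Mmp10, at 0.65 (-1.47 to 2.76), -0.42 (-2.42 to 1.59) and -1.82 (-3.93 to 0.28). The 2 members under an unadjusted p of 0.05 were Mmp12, higher in PD wounds at day 12 by 1.54 (0.37 to 2.71, edgeR adjusted p = 0.884), and Mmp25, lower by 1.05 (-1.92 to -0.19, adjusted p = 0.884). In both the groups overlapped, since only 3 of 6 PD libraries exceeded the highest P library for Mmp12. Mmp8 at day 2 was the only member without overlap on any day (-1.02, -2.49 to 0.45, adjusted p = 1), as were 1.4% of all genes that lay lower in PD without overlap. On that day the neutrophil marker sum was also lower in every PD library (2300 to 4670 CPM) than in any P library (4880 to 9460 CPM). Its part in the Mmp8 difference was not tested.

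**Figure D4:**
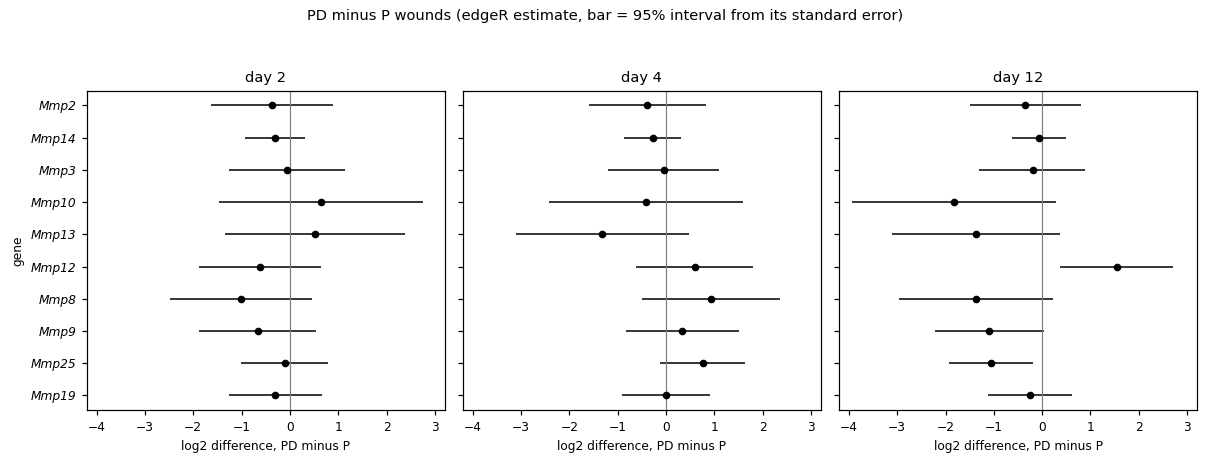
PD minus P difference of each gene at days 2, 4 and 12 on the log2 scale (edgeR), with 95% intervals from a standard error derived from the test statistic. Intervals cross 0 for all genes on days 2 and 4, and on day 12 for all but Mmp12 (0.37 to 2.71) and Mmp25 (-1.92 to -0.19), neither of which passed adjustment over all tested genes.

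Whether the PD minus P difference changed between days was tested as an interaction. None of the 10 members, and 0% of all genes, was called between days 4 and 2 or between days 12 and 4. At an unadjusted p under 0.05 there were 0 and 2 members, against 7.13% and 3.02% of all genes, the 2 being Mmp25 (-1.81, 95% interval -3.04 to -0.58) and Mmp8 (-2.30, -4.44 to -0.16) between days 12 and 4, both with an edgeR adjusted p of 1. DESeq2 called none in either, and limma-voom called Mmp8 (2.38, adjusted p = 0.00312) and Mmp9 (1.80, adjusted p = 0.0301) between days 4 and 2, with 13.7% of all genes.

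The run on chromosome 9 also holds Mmp genes outside the 10. Mmp1b, next to Mmp12, was called higher at days 2 and 4 in both arms, by 9.21 (PD) and 8.59 (P) at day 2, from 1143 counts over all 36 libraries. At day 12 it was 3.6 (edgeR adjusted p = 0.262) in PD wounds and 6.15 (adjusted p = 0.0243) in P wounds. Mmp1a, between Mmp3 and Mmp10, had 257 counts and was called higher at day 2 by 7.07 (PD) and 6.89 (P). At day 4 Mmp1a was called higher in PD wounds (5.7, edgeR adjusted p = 0.0296) but not in P wounds (5.27, adjusted p = 0.0553). Neither Mmp1b nor Mmp1a had any counts in unwounded skin, so the size of their changes depends on the prior count. At day 2 Mmp1b averaged 2.39 ± 1.27 CPM in PD and 1.54 ± 2.22 CPM in P wounds (SD). Mmp1a averaged 0.539 ± 0.408 CPM (PD) and 0.463 ± 0.64 CPM (P) on that day. Mmp27, just past Mmp8, had 4252 counts and was called in 1 of 6 comparisons, in P wounds at day 4 (1.92, edgeR adjusted p = 0.0377). Mmp20 and Mmp7 at the far end had 12 counts and 1 count in all and were not tested. Mmp27 thus lay 1.28 to 1.92 above unwounded skin while its neighbour Mmp8 lay 3.11 to 10.27 above it.

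**Figure D5:**
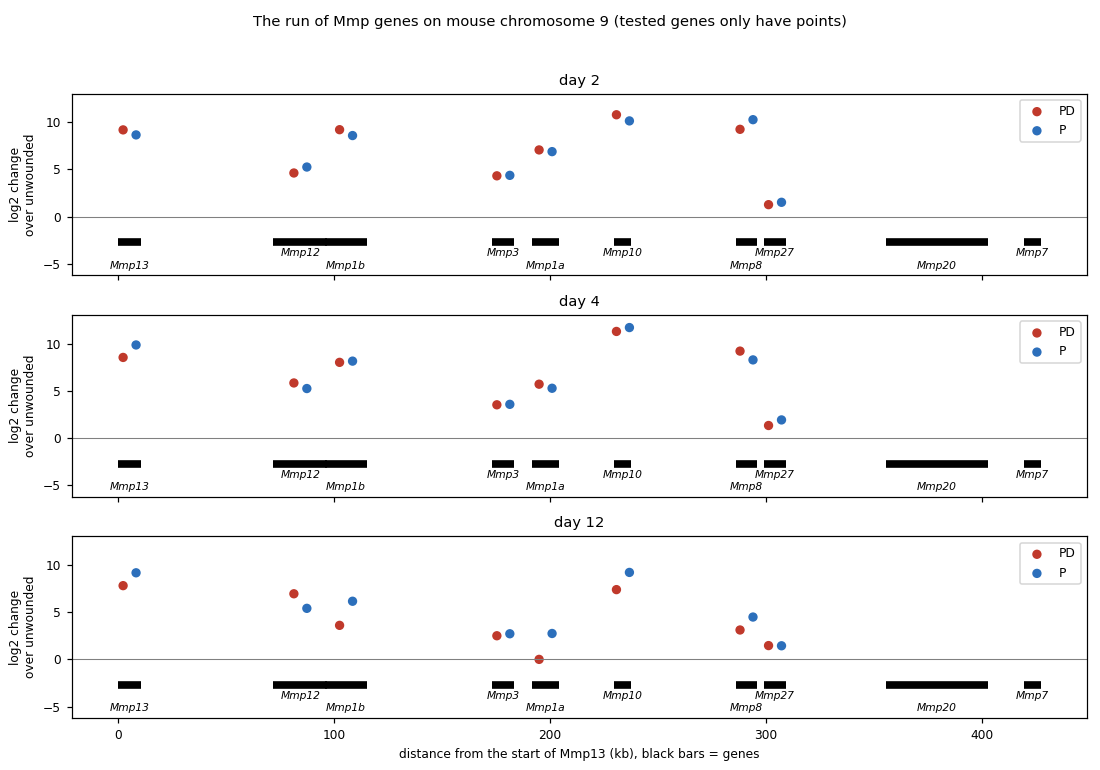
Log2 change over unwounded skin (PD red, P blue, one panel per day) of the tested Mmp genes on chromosome 9, placed by distance in kb from the start of Mmp13, with genes as black bars. Changes at days 2 and 4 are above 3 from Mmp13 to Mmp8 and under 2 at Mmp27; values of genes with few or no unwounded counts depend on the prior count.

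Other genes of the pathway moved as follows. At day 2, the counts over unwounded skin that follow stand beside 21% (PD) and 22.3% (P) of all genes called higher and 18.4% (PD) and 19% (P) called lower. Of 6 inhibitor genes, 1 was called higher and 2 lower at day 2 in each arm. Timp1, the secreted inhibitor made in inflamed tissue, was 176 ± 39.3 CPM in PD and 301 ± 46.8 CPM in P wounds at day 2 (SD, n = 5 each), against 1.32 ± 0.202 CPM in unwounded skin (SD, n = 3), a rise of 135-fold (PD) and 231-fold (P). It was still 48.6-fold (PD) and 51.9-fold (P) higher at day 12. Timp3, which binds to the matrix, fell 2.90-fold (PD) and 3.72-fold (P) at day 2, and Timp4 fell 4.84-fold (PD) and 12.5-fold (P). Among 9 tested genes of the activators and plasmin system, 4 (PD) and 3 (P) were higher at day 2 and 1 lower in each arm. Plaur, the urokinase receptor, rose 154-fold (PD) and 222-fold (P) at day 2 and was 12.1-fold (PD) and 10.6-fold (P) above unwounded skin at day 12.

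AP-1 genes rose as a group early: 8 of 9 were called higher and 1 lower at day 2 in both arms, with list medians of 1.97 (PD) and 2.34 (P). At day 12, 3 of 9 were called higher in each arm, beside 24.2% (PD) and 23.7% (P) of all genes. The list medians at day 12 were 0.16 (PD) and 0.22 (P). Fosl1 rose 45.9-fold (PD) and 64.2-fold (P) at day 2 and was 4.82-fold (PD) and 11.1-fold (P) higher at day 12. Of 11 tested cytokine and growth factor genes known to induce metalloproteinases, 7 (PD) and 8 (P) were higher at day 2 and 1 was lower. Il1b, an alarm cytokine of neutrophils and macrophages, was 695 to 1540 CPM in PD and 754 to 2040 CPM in P wounds at day 2, against 0.673 to 1.16 CPM in unwounded skin. Among 8 binding partners 4 were higher in each arm at day 2, led by Lcn2, whose product forms a complex with that of Mmp9 (258-fold in PD, 423-fold in P). Of 10 other tested metalloproteinase genes 3 were higher and 1 was lower at day 2 in both arms, near the shares of all genes, with a median of 0.57 (PD) and 0.82 (P). Mmp28, an epidermal member, was the lower one, down 2.05-fold (PD) and 2.88-fold (P), and Mmp11, Mmp16 and Mmp23 were called higher at day 12, Mmp11 by 9.67-fold (PD) and 9.06-fold (P). No gene of these lists was called between PD and P wounds on any day, where edgeR called 0% of all tested genes.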

How the data were processed

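RNA of 36 skin biopsies was sequenced on an Illumina NovaSeq from stranded poly(A) libraries, per the labels' protocols. The authors deposited whole-number read counts per gene, not normalized. The submitters' processing notes list Trimmomatic, HISAT2 2.1.0, SAMtools 1.9, HTSeq and the build GRCm39, with no order or settings; the strand setting and annotation release are not given in the sources used here. Of the 55414 gene identifiers, 54749 (98.8%) were found in a GENCODE annotation of GRCm39, which gave coordinates and exon lengths, and 1416 had no symbol. Replicates differed beyond sampling noise (chi-square per degree of freedom at least 12.3).

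After a filter on low counts (filterByExpr, minimum count 10, total 15) and TMM scaling, 20657 genes were fitted with the robust quasi-likelihood model of edgeR 4.0.16 in R 4.3.3, using all 36 libraries and 1 mean for each group. A call is an adjusted p under 0.05 (Benjamini-Hochberg, all genes tested). Levels are TMM-scaled CPM. The SE of a log2 change was derived as the absolute change divided by the square root of the edgeR F statistic. Its 95% interval is symmetric and uses the t distribution. Where a group holds few or no counts, the change depends on the prior count, and so does this SE. Intervals of fold ratios (95%) and floors (3 counts) cover counting error only. Alternatives were DESeq2 1.42.0 (test, and its size factors), limma-voom (limma 3.58.1), no composition factor, no filter and a minimum of 50 counts, only the compared libraries, each library left out, the replicate number as a block, and 2 surrogate variables (sva 3.50.0). Fits of wound replicates 1 and 2 alone and of 3 and up alone were chosen after seeing the data. The code was tested on simulated data. Members, gene lists and markers were chosen with earlier results of these data known. The text names the 10 members in each comparison, up to 4 called genes of each list with the largest change (mean level 1 CPM or more), and the 3 genes most like each member, except for Mmp19, for which they are not reported here. Likeness is Pearson r of log2 CPM (prior count 2) over the 36 libraries.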

Additional observations from a re-analysis of the deposited data

Results flagged for a closer look

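A library was taken as far from its group when its gap to the nearest other was over Dixon's 95% limit. Of 60 sets of 5 or 6 wound libraries, 13 had such a library. The limit's nominal rate of about 1 in 20 holds for independent, normally distributed values. Here it was applied to untransformed CPM of genes that share the same libraries, so that rate cannot be set against this count.

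P replicate 4 at day 4 stood out in 4 genes. It held 643 CPM of Mmp9 (next highest 201), 222 CPM of Mmp13 (44.8) and 47.7 CPM of Mmp10 (9.09), and it was lowest in Mmp3, at 37.4 CPM (next 82.5). Its neutrophil marker sum was 9273 CPM, against 2441 to 4271 CPM in the other 4 libraries, and its wound keratinocyte sum was 8349 CPM, against 15980 to 21500 CPM; their part was not tested.

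P replicate 1 at day 12 was high in Mmp13 (193 CPM, next 29.5) and Mmp10 (9.56 CPM, next 2.54), and P replicate 2 at day 12 was high in Mmp12 (66.4 CPM, next 30). PD replicate 1 at day 2 was high in Mmp13 (90.7 CPM, next 38.2) and Mmp10 (16.3 CPM, next 6.55). PD replicate 3 at day 2 was low in Mmp9 (125 CPM, next 210). PD replicate 3 at day 4 was high in Mmp8 (78.9 CPM, next 29.2), with the highest neutrophil sum of its group, 13850 CPM. PD replicate 5 at day 4 was high in Mmp10 (30.3 CPM, next 10.5), and PD replicate 2 at day 12 in Mmp13 (50.7 CPM, next 17.1).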

How the results depend on the processing

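Over unwounded skin, under every alternative except limma-voom no member was called lower. At days 2 and 4, 9 or 10 members were called higher under each. Of all tested genes, 21% to 25.4% were called higher at those days as reported. The shares under the alternatives are not reported here, and limma-voom called more genes in some of these comparisons, as counted below. Opposite signs were not called, before or after, except for Mmp9 in P wounds at day 12 under limma-voom, and the cause of these shifts was not tested. Library totals alone moved the median of all genes over unwounded skin to 0.33 (PD) and 0.373 (P) at day 12, and the share of calls that were higher to 71.7% (PD) and 73% (P), against 53.9% (PD) and 54.2% (P) with TMM. At PD day 2 that share was 65.7% against 53.3%. Between days 12 and 4 it was 70% (PD) and 69.6% (P) against 50.2% (PD) and 47.1% (P), and for PD day 4 over day 2 it was 35.8% against 62.6%.

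Replicate numbers did not clearly pair the samples. Correlations of same-numbered deviations ran from -0.25 to 0.54, and in no comparison were all pairs above 0.1. Between PD and P wounds, 4 of 5 pairs were above 0.1 at day 2, 4 of 5 at day 4 and 4 of 6 at day 12. A partial pairing was thus not excluded. With the replicate block the members called over unwounded skin were 10 at day 2 and at day 4 in both arms, 7 (PD) and 9 (P) at day 12. The shares of all genes called over unwounded skin with the block are not reported here. PD against P stayed at 0 members on each day. With DESeq2 size factors, the sign turned to Mmp19 0.01 for PD against P at day 4. With library totals alone, the sign turned to Mmp3 0.00 for PD against P at day 2, to Mmp3 -0.09 and Mmp14 -0.06 for the change of the PD minus P difference between days 4 and 2. With a minimum count of 50, the sign turned to Mmp19 0.01 for PD against P at day 4. With the replicate block, the sign turned to Mmp3 0.01 for PD against P at day 2, to Mmp3 0.05 and Mmp10 0.53 for PD against P at day 4, to Mmp3 0.09 and Mmp14 0.02 for PD against P at day 12, to Mmp12 0.04 for P day 4 over day 2, to Mmp8 0.15 for PD day 4 over day 2, to Mmp3 0.04 and Mmp13 0.41 for the change of the PD minus P difference between days 12 and 4. With 2 surrogate variables, the sign turned to Mmp9 0.86 for PD day 12 over unwounded skin, to Mmp3 0.21 for PD against P at day 2, to Mmp2 0.33, Mmp3 0.60, Mmp10 0.07 and Mmp19 0.13 for PD against P at day 4, to Mmp2 0.67, Mmp3 0.64, Mmp13 0.02, Mmp14 0.28 and Mmp19 0.31 for PD against P at day 12, to Mmp12 0.17 for P day 4 over day 2, to Mmp3 0.04 and Mmp13 0.02 for PD day 4 over day 2, to Mmp13 0.16 for PD day 12 over day 4, to Mmp2 0.43 for the change of the PD minus P difference between days 4 and 2, to Mmp3 0.04, Mmp13 0.70 and Mmp19 0.19 for the change of the PD minus P difference between days 12 and 4. With 2 surrogate variables, members called were 1 for PD day 4 over day 2. With 2 surrogate variables, genes called were 2866 for P day 4 over day 2 and 1932 for PD day 4 over day 2. With the DESeq2 Wald test, the sign turned to Mmp19 0.01 for PD against P at day 4, to Mmp12 0.00 for P day 4 over day 2. With the DESeq2 Wald test, genes called were 24 for PD against P at day 2, 182 for PD against P at day 4, 1647 for PD day 4 over day 2, 78 for the change of the PD minus P difference between days 4 and 2 and 89 for the change of the PD minus P difference between days 12 and 4. With limma-voom, the sign turned to Mmp9 -1.13 for P day 12 over unwounded skin, to Mmp2 0.60 and Mmp3 0.77 for PD against P at day 2, to Mmp10 0.75 and Mmp13 0.10 for PD against P at day 4, to Mmp2 0.53, Mmp3 0.78, Mmp8 0.97, Mmp10 0.98, Mmp13 1.07, Mmp14 0.43 and Mmp19 0.50 for PD against P at day 12, to Mmp2 -0.14 and Mmp12 -0.05 for P day 12 over day 4, to Mmp2 -0.35 for PD day 4 over day 2, to Mmp12 -0.50 for PD day 12 over day 4, to Mmp3 -1.24, Mmp10 0.01 and Mmp14 -0.26 for the change of the PD minus P difference between days 4 and 2, to Mmp3 1.25, Mmp10 0.23, Mmp12 -0.46, Mmp13 0.96 and Mmp19 0.59 for the change of the PD minus P difference between days 12 and 4. With limma-voom, members called were 1 for PD against P at day 4, 5 for P day 4 over day 2, 7 for P day 12 over day 4, 2 for PD day 4 over day 2 and 2 for the change of the PD minus P difference between days 4 and 2. With limma-voom, genes called were 12520 for PD day 2 over unwounded skin, 13542 for P day 4 over unwounded skin, 13739 for P day 12 over unwounded skin, 1 for PD against P at day 2, 2074 for PD against P at day 4, 6200 for P day 4 over day 2, 10709 for P day 12 over day 4, 4118 for PD day 4 over day 2, 2826 for the change of the PD minus P difference between days 4 and 2 and 1 for the change of the PD minus P difference between days 12 and 4. With only the compared libraries, the sign turned to Mmp19 0.00 for PD against P at day 4, to Mmp12 0.03 for P day 4 over day 2, to Mmp3 -0.04 for the change of the PD minus P difference between days 4 and 2. With only the compared libraries, members called were 3 for P day 4 over day 2 and 2 for P day 12 over day 4. With only the compared libraries, genes called were 1138 for P day 4 over day 2 and 381 for PD day 4 over day 2. With wound replicates 1 and 2 alone, the sign turned to Mmp9 0.10 for PD day 12 over unwounded skin, to Mmp19 0.10 for PD against P at day 2, to Mmp2 0.19, Mmp3 0.17, Mmp10 0.88, Mmp13 1.05 and Mmp19 0.59 for PD against P at day 4, to Mmp2 -0.55, Mmp10 -1.05, Mmp13 -1.45 and Mmp14 -0.21 for P day 4 over day 2, to Mmp3 0.16, Mmp10 1.07, Mmp13 2.87 and Mmp19 1 for P day 12 over day 4, to Mmp9 -0.64 and Mmp10 -0.90 for PD day 4 over day 2, to Mmp13 0.02 for PD day 12 over day 4, to Mmp2 0.97, Mmp10 0.15 and Mmp13 0.65 for the change of the PD minus P difference between days 4 and 2, to Mmp2 -0.85, Mmp12 -0.44 and Mmp14 -0.34 for the change of the PD minus P difference between days 12 and 4. With wound replicates 1 and 2 alone, members called were 2 for P day 4 over day 2 and 2 for P day 12 over day 4. With wound replicates 1 and 2 alone, genes called were 973 for P day 4 over day 2, 2752 for P day 12 over day 4, 532 for PD day 4 over day 2 and 2312 for PD day 12 over day 4. With wound replicates 3 and up alone, the sign turned to Mmp9 -0.57 for P day 12 over unwounded skin, to Mmp2 0.47 and Mmp3 0.42 for PD against P at day 2, to Mmp2 0.32, Mmp3 0.50, Mmp8 1.12, Mmp13 0.40, Mmp14 0.36 and Mmp19 0.53 for PD against P at day 12, to Mmp3 0.08 and Mmp12 0.65 for P day 4 over day 2, to Mmp12 -0.88 for P day 12 over day 4, to Mmp2 -0.10 and Mmp8 0.42 for PD day 4 over day 2, to Mmp3 -0.61 and Mmp14 -0.08 for the change of the PD minus P difference between days 4 and 2, to Mmp3 0.69, Mmp8 0.10, Mmp10 0.40, Mmp13 2.48 and Mmp19 0.89 for the change of the PD minus P difference between days 12 and 4. With wound replicates 3 and up alone, members called were 7 for P day 12 over day 4 and 8 for PD day 12 over day 4. The share of all genes in that PD fit is not reported here. With all libraries, 15.7% of all genes were called higher and 15.6% lower for PD day 12 over day 4. With wound replicates 3 and up alone, genes called were 652 for PD against P at day 4 and 12 for the change of the PD minus P difference between days 4 and 2. With no filter, the sign turned to Mmp3 -0.04 for the change of the PD minus P difference between days 4 and 2. With no filter, members called were 2 for P day 12 over day 4. For that comparison, the share of all genes with no filter or with only the compared libraries is not reported here. With no filter, genes called were 527 for PD day 4 over day 2. Leaving out each library in turn gave the following lowest and highest values. For P day 12 over unwounded skin they were Mmp8 3.42 to 8.13. For PD against P at day 12 they were Mmp2 -0.60 to 0.30, Mmp3 -0.44 to 0.45, Mmp13 -2.20 to 0.55, Mmp14 -0.21 to 0.31 and Mmp19 -0.50 to 0.31. For P day 12 over day 4 they were Mmp3 -1.52 to -0.61, Mmp10 -3.83 to -1.04, Mmp13 -2.6 to 0.60, Mmp14 0.45 to 0.99, Mmp12 -0.32 to 0.41 and Mmp25 -1.40 to -0.95. For the change of the PD minus P difference between days 12 and 4 they were Mmp3 -0.39 to 0.50, Mmp13 -1.29 to 1.86, Mmp19 -0.51 to 0.31 and Mmp2 -0.21 to 0.69. For PD day 12 over unwounded skin they were Mmp10 6.71 to 7.63 and Mmp8 2.23 to 6.75. For PD day 12 over day 4 they were Mmp12 0.71 to 1.36 and Mmp2 1.07 to 1.72. For P day 4 over day 2 they were Mmp12 -0.26 to 0.24, Mmp8 -2.61 to -1.78, Mmp13 -0.04 to 1.63 and Mmp2 -0.07 to 0.63. For the change of the PD minus P difference between days 4 and 2 they were Mmp2 -0.51 to 0.27, Mmp14 -0.12 to 0.20, Mmp3 -0.34 to 0.33 and Mmp10 -1.81 to 0.30. For PD against P at day 4 they were Mmp10 -1.16 to 0.98, Mmp19 -0.18 to 0.26 and Mmp3 -0.36 to 0.09. For PD day 4 over day 2 they were Mmp8 -0.68 to 0.13, Mmp2 -0.28 to 0.41 and Mmp10 -0.25 to 1.05. For PD against P at day 2 they were Mmp3 -0.38 to 0.29 and Mmp2 -0.66 to 0.12. The count of members called for P day 12 over day 4 was 2 to 6. The count of members called for P day 4 over day 2 was 0 to 1. The count of genes called for PD against P at day 4 was 0 to 31, and 26 or more without P day 4 replicate 1, 2, 4 or 5. The count of genes called for PD day 4 over day 2 was 430 to 1141, lowest without PD day 4 replicate 4 and next lowest without PD day 2 replicate 3, 1 or 2. The count of genes called for P day 4 over day 2 was 937 to 2444, lowest without P day 2 replicate 5 and next lowest without P day 2 replicate 4.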
